A study of Mus musculus with 4 samples.

Results

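The genes described here are 9 members of the placental prolactin family of the mouse: Prl8a9, Prl2a1, Prl7b1, Prl3d3, Prl8a6, Prl6a1, Prl2c5, Prl8a8 and Prl2b1. They were chosen with their values on these 4 arrays in view, on which irradiated replicate 2 was the highest array for each, so their levels are given as a description and no test is made on them. Every probe set that the platform annotation pairs with a member's symbol was taken, which gave 9 probe sets, 1 for each gene and each with that symbol alone, of 23410 annotated probe sets. RefSeq (GRCm38.p6) lists 26 genes of the family, and 12 further probe sets named 13 of the others. Prl3d1, Prl3d2, Prl3b1 and Prl8a1 are not analysed here.

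The irradiated group was DLA cells, Dalton's lymphoma ascites, a mouse tumour passed on by transplantation and growing loose in peritoneal fluid, from male Swiss albino mice aged 4 to 5 months whose whole body received 2 Gy of electron radiation on day 8 after transplantation. The control group was DLA cells from such mice without irradiation. Cells were harvested 48 h after the exposure, and RNA was hybridised to 1-colour arrays, 2 irradiated and 2 control. The labels call them biological replicates 1 and 2 of each group but do not say whether a sample came from 1 mouse or a pool. The spread between replicates therefore need not be that between single mice. Part of it may also be technical, which was not tested. All values are log2 probe set intensities, on which a step of 1 is 2-fold.

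Prolactin is a pituitary hormone that acts through the prolactin receptor, the kinase JAK2 and the transcription factor STAT5. In mice and other rodents the prolactin gene has been duplicated many times, and most of the copies are expressed in the placenta or the decidua rather than the pituitary. Trophoblast giant cells, which line the embryo's side of the implantation site, and spongiotrophoblast cells, which lie behind them, secrete distinct sets of these hormones over pregnancy. Some members, the placental lactogens, bind the prolactin receptor; others are called nonclassical because they do not bind it or have no known receptor. AP-1 and GATA factors are known to act on promoters of the placental lactogen I and proliferin genes in mouse trophoblast cells.

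Irradiated replicate 2 stood apart from the other arrays, and the results below rest on it. At least 4-fold above every other array, 93 annotated probe sets were found in irradiated replicate 2, and 0 in each of irradiated replicate 1, control replicate 1 and control replicate 2. The SD of the difference between replicates over all annotated probe sets was 0.43 for the irradiated arrays and 0.17 for the control arrays, with 441 and 4 probe sets at least 2-fold apart. The array medians were 6.43 on both irradiated arrays, against 6.45 and 6.46 on the control arrays. Of 23410 annotated probe sets 6 (0.0256%) passed limma's adjusted threshold of 0.05, with 2 higher (Ly6g and a probe set of Ly6c1 and Ly6c2) and 4 lower in irradiated cells, all of them alpha- or beta-globin probe sets. At an unadjusted p under 0.05, with no adjustment for the number of probe sets, 9.46% of annotated probe sets differed (2214). With any 1 of the 4 arrays left out, 0 passed the adjusted threshold (limma; between 378 and 7226 at an unadjusted p under 0.05), but such a fit has 1 residual degree of freedom, and the group with both arrays alone gives the spread. The number of arrays limits the precision of every value here.

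The labelled cell type was set against marker lists, counting a marker as bright where its mean over the 4 arrays reached the median of annotated probe sets, 6.71. Of the lymphocyte lists, 0 of 13 measured T cell markers and 0 of 9 B cell markers were bright, and of 8 pan-leukocyte markers 0 were bright, so the lymphoid identity in the label was not seen in these markers. By contrast 7 of 10 epithelial and mesothelial markers were bright. Krt7, a keratin of simple epithelia, measured 11.84 and 10.62 on the irradiated arrays, against 12.48 and 12.36 on the control arrays. Plet1, a marker of early trophoblast and some epithelia, measured 13.85 and 13.58 on the irradiated arrays, against 13.15 and 13.10 on the control arrays. It was the brightest of 15 measured giant cell and spongiotrophoblast markers, of which 6 were bright. The cells are called DLA cells below, after the label.

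Promoter sequences are shown for 4 members because they hold the members' 2 greatest heights (Prl8a9 and Prl2a1), a close copy with a far smaller one (Prl8a8), and the placental lactogen among the members (Prl3d3). The height of a probe set is its log2 value on irradiated replicate 2 minus that on the highest of the other arrays. RefSeq windows of 300 bases, 250 before and 50 from the annotated gene start on, were found for 8 of 9 members, all but Prl7b1. Capitals mark 3 motifs. The AP-1 motif was searched as TGANTCA on both strands. The GATA motif was searched on both strands as AGATAA. For the TATA box the letters were TATANA, on the gene's own strand, with the first base 20 to 40 bases before the start; where TATA matches overlapped, each was counted as a match of the same window. All 4 windows lie on chromosome 13 of GRCm38.p6 and are written 5′ to 3′ on the gene's strand, with +1 as the gene's first base. Prl8a9 is at chr13:27564557-27564856 (minus strand), Prl8a8 at chr13:27513168-27513467 (minus strand), Prl2a1 at chr13:27801405-27801704 (plus strand) and Prl3d3 at chr13:27156544-27156843 (plus strand).
Prl8a9: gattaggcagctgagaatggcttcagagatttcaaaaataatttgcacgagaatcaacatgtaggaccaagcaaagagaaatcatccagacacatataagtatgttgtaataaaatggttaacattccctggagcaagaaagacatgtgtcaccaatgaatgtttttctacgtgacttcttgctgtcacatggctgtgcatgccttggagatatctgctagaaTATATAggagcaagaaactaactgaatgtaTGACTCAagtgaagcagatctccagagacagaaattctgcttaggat
Prl8a8: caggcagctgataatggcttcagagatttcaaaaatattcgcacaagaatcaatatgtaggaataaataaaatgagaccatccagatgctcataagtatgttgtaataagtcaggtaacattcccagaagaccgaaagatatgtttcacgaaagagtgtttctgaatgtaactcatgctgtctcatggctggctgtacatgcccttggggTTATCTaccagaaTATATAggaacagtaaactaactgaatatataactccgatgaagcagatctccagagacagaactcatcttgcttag
Prl2a1: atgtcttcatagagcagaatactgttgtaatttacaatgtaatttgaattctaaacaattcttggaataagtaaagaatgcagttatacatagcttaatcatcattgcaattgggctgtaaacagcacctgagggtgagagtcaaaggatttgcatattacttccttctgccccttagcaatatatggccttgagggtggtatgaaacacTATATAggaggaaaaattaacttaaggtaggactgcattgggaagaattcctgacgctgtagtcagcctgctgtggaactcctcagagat
Prl3d3: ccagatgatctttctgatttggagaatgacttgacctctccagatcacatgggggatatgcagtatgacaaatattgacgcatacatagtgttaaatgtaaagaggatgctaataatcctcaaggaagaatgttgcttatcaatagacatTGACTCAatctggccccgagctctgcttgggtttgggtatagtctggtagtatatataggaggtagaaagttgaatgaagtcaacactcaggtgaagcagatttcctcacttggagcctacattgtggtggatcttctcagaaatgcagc

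The Prl8a9 window has the TATA motif at -27 to -22 and an AP-1 motif at +4 to +10. The Prl8a8 window has the TATA motif at the same place, -27 to -22, and a GATA motif on the opposite strand at -40 to -35. Of 292 aligned positions of these windows 238 were identical (81.5%). Prl3d3 has an AP-1 motif at -100 to -94, and its window holds the TATA letters outside the 20 to 40 base range only, in lower case above. Prl2a1 has the TATA motif at -40 to -35 and neither of the other motifs.

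The AP-1 motif was in the windows of 3 of 8 members (Prl8a9, Prl3d3 and Prl2b1), against 6 of 14 other family genes and 7.81% of 32851 promoter windows in the table. The GATA motif was in 5 of 8 members (Prl6a1, Prl8a6, Prl2c5, Prl8a8 and Prl2b1), against 5 of 14 other family genes and 11.2% of all windows. The TATA motif, chosen after these sequences had been seen, was within its range in 6 of 8 members, against 11 of 14 other family genes and 3.11% of all windows. Of the members with the smallest heights on irradiated replicate 2, Prl8a8 carried the GATA and TATA motifs and Prl2b1 carried all 3. Over the 28 pairs of member windows, identical bases made up between 52.3% and 79.3% of the window, with a median of 57.2%, and the highest was the pair of Prl8a8 and Prl8a9. These matches describe letters and are not evidence of binding.

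**Figure D1:**
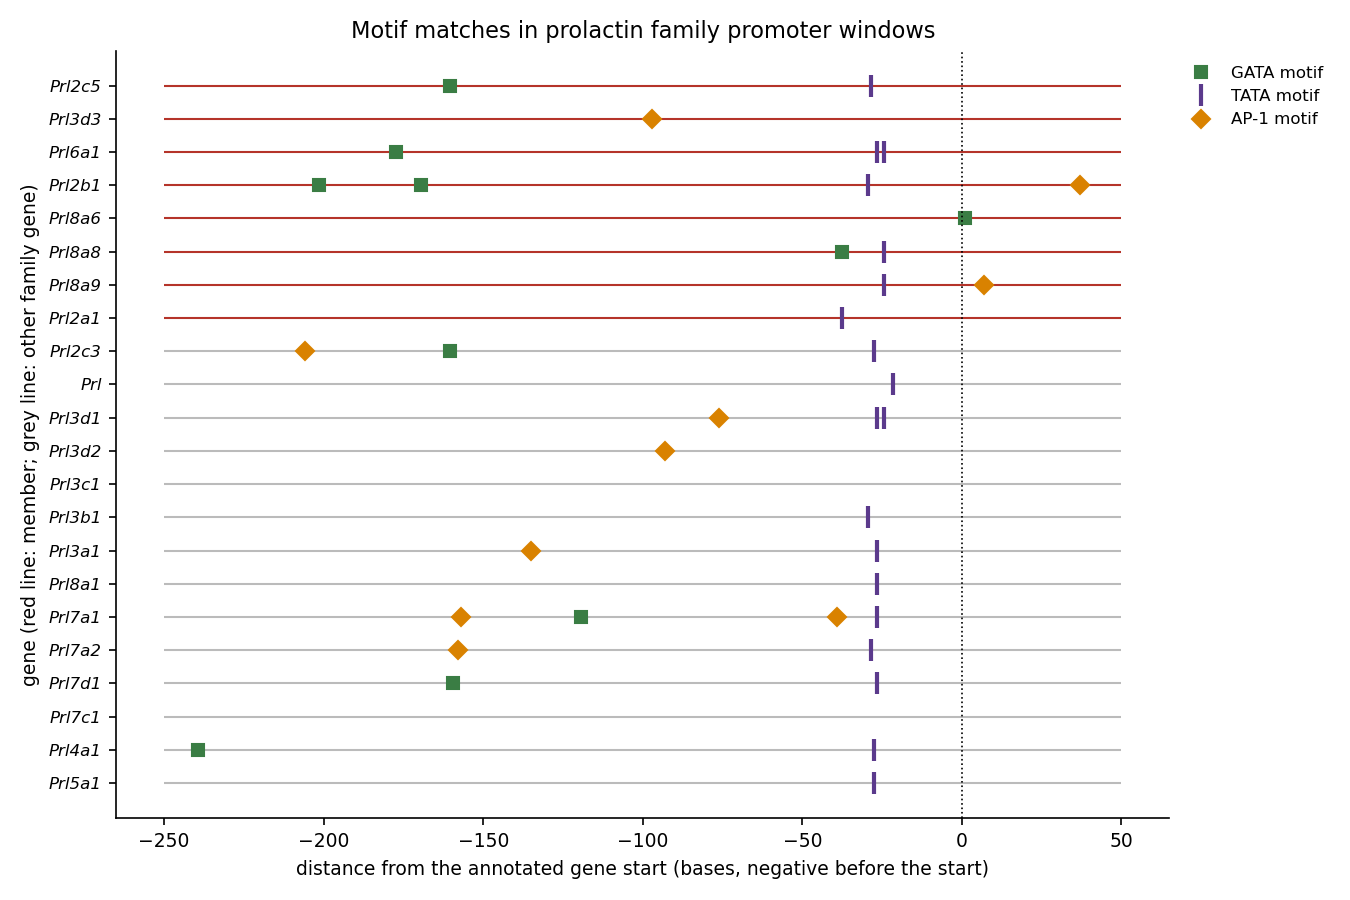
Motif matches in RefSeq promoter windows of 22 prolactin family genes, 8 members (red lines) and 14 others (grey lines), by distance in bases from the annotated start; 1 window is drawn for each gene, and the GATA match of Prl3c1 lies in another of its windows. AP-1 motifs (diamonds) are in 3 members and GATA motifs (squares) in 5, and the TATA motif (bars) is in 6 members and 11 other genes.

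Prl3d3 encodes placental lactogen I gamma, a hormone of trophoblast giant cells that acts on the prolactin receptor. It measured 3.95 and 7.10 on irradiated replicates 1 and 2, against 3.59 and 3.45 on control replicates 1 and 2. Only irradiated replicate 2 was high, at 3.15 above the highest of the other arrays (8.88-fold); irradiated replicate 1 lay 0.36 above the higher control. The means were 5.53 ± 2.23 in irradiated and 3.52 ± 0.10 in control cells (SD, n = 2 arrays each), a log2 difference of 2.01 (4.01-fold). The annotated promoter windows of Prl3d1 and Prl3d2 closely resemble that of Prl3d3. Whether these genes share probe signal was not tested, so the Prl3d3 values are uncertain as values of a single gene.

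Prl2c5 belongs to the proliferins, hormones first described as growth-related proteins of mouse fibroblasts and known to promote the growth of blood vessels. It measured 9.46 and 11.23 on the irradiated arrays, against 8.66 and 8.51 on the control arrays. Here both irradiated arrays exceeded both controls, replicate 1 by 0.80, and replicate 2 was a further 1.77 higher. The log2 difference of the means was 1.76 (3.39-fold). A probe set that names Prl2c2, Prl2c3 and Prl2c4, the other proliferins, gave 9.20 and 11.13 on the irradiated arrays, against 8.39 and 8.37 on the control arrays (log2 difference 1.79, limma adjusted p = 0.50). The annotated promoter window of Prl2c3 shares 287 of 299 aligned bases with that of Prl2c5 (96.0%). Genes this alike may share probe signal, which was not tested, so the proliferin values are uncertain as values of single genes.

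Prl8a9, Prl8a6 and Prl8a8 encode prolactin-like proteins of the C group, nonclassical hormones of spongiotrophoblast and giant cells. Prl8a9 measured 5.21 and 11.47 on the irradiated arrays, against 4.87 and 4.66 on the control arrays. Its value on irradiated replicate 2 was 6.26 above the highest other array (76.6-fold), the greatest height of any annotated probe set. Its means were 8.34 ± 4.43 in irradiated and 4.77 ± 0.15 in control cells (SD, n = 2 arrays each), so the difference of 3.58 was smaller than the spread of the irradiated arrays.

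Prl8a6 measured 4.16 and 7.10 on the irradiated arrays, against 3.98 and 4.16 on the control arrays. Irradiated replicate 1 equalled control replicate 2, and irradiated replicate 2 was 2.94 above both. Prl8a8 measured 3.30 and 4.67 on the irradiated arrays, against 3.66 and 3.77 on the control arrays. Its irradiated arrays lay on either side of the controls, with replicate 2 at 0.90 above the highest other array. Its promoter window shares the most bases with that of Prl8a9.

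Prl2a1, which encodes prolactin-like protein M, measured 5.63 and 10.61 on the irradiated arrays, against 5.22 and 5.47 on the control arrays. Irradiated replicate 2 was 4.98 above the highest other array (31.6-fold), while replicate 1 exceeded the higher control by 0.16. The control replicates themselves lay 0.25 apart. Prl2b1, which encodes prolactin-like protein K, measured 2.47 and 3.82 on the irradiated arrays, against 3.12 and 2.90 on the control arrays. Like Prl8a8 it was lowest on irradiated replicate 1 and highest, by 0.70, on irradiated replicate 2.

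Prl7b1, which encodes prolactin-like protein N, measured 3.51 and 7.87 on the irradiated arrays, against 3.40 and 3.66 on the control arrays. Irradiated replicate 1 lay between the controls, and replicate 2 was 4.21 above the highest other array (18.5-fold). Prl6a1, which encodes prolactin-like protein B, measured 8.53 and 10.67 on the irradiated arrays, against 6.81 and 6.82 on the control arrays. It had the largest gap of the members between irradiated replicate 1 and the higher control, 1.71, and irradiated replicate 2 was a further 2.14 higher. Its means were 9.60 ± 1.51 in irradiated and 6.82 ± 0.01 in control cells (SD, n = 2 arrays each), a log2 difference of 2.79 (6.89-fold).

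**Figure D2:**
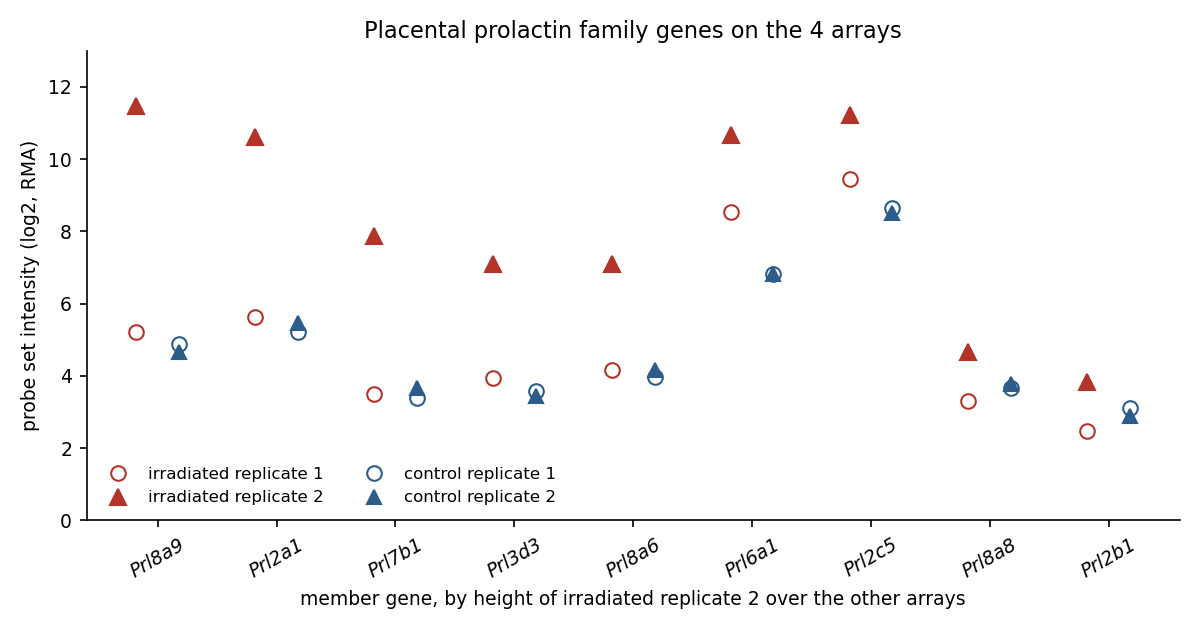
Log2 intensity of the 9 member probe sets on each array, with irradiated arrays (red, left of each gene's tick) and control arrays (blue, right); open circles are replicate 1 and triangles replicate 2, so each point is 1 array. Irradiated replicate 2 is the highest array for every member, by between 0.70 (Prl2b1) and 6.26 (Prl8a9), and for Prl6a1 and Prl2c5 irradiated replicate 1 also lies clearly above both controls.

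Over the 9 members, irradiated replicate 2 was the highest array for 9, as it was for 30.3% of all annotated probe sets. It was at least 2-fold above every other array for 7 members, against 1.08% of all annotated probe sets, and at least 4-fold above for 6, against 0.397%. Both irradiated arrays exceeded both control arrays for 5 members (Prl8a9, Prl2a1, Prl3d3, Prl6a1 and Prl2c5), against 17.9% of all annotated probe sets. Because the members were chosen on these arrays, nothing is read from these counts.

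The median of the members' log2 differences was 2.01, against -0.03 over all annotated probe sets. Taken apart, the median was 3.58 for irradiated replicate 2 minus the control mean and 0.29 for irradiated replicate 1 minus the control mean. With irradiated replicate 2 left out, the differences of Prl7b1, Prl8a8 and Prl2b1 were below 0, at -0.02, -0.42 and -0.54. Control replicates differed by between 0.01 and 0.26 for each member. In a bulk RNA sample, fewer or more cells of a type and less or more RNA per cell cannot be told apart.

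**Figure D3:**
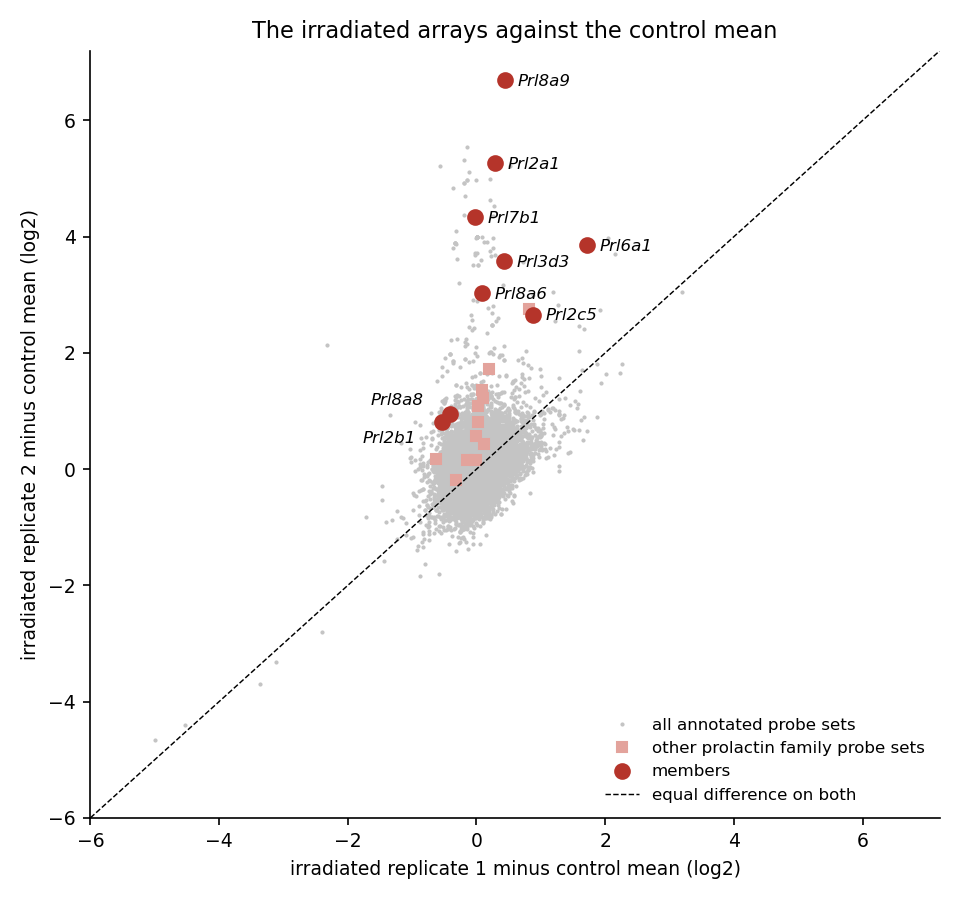
Each annotated probe set by its difference from the control mean (log2) on irradiated replicate 1 (horizontal) and irradiated replicate 2 (vertical), with the 9 members as labelled red points, 12 other family probe sets as pale squares and the line of equal differences dashed. Every member lies above the line, Prl8a9 highest at 6.71 against 0.45, and Prl6a1 farthest to the right of the members at 1.72.

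The other 12 family probe sets were not chosen by the rule and were tested, though they are what the choice of members left over. An unadjusted p under 0.05 (limma) was found for 1 of 12, against 9.46% of all annotated probe sets. None of the 12 family probe sets passed limma's adjusted threshold (0 of 12, smallest adjusted p = 0.50). Their median log2 difference was 0.35, with a median of 0.70 on irradiated replicate 2 and 0.02 on irradiated replicate 1 relative to the control mean. Irradiated replicate 2 was the highest array for 11 of 12, against 30.3% of all annotated probe sets. It was at least 2-fold above every other array for 5 of 12, against 1.08%. These 5 were the proliferin probe set, Prl2c1, Prl5a1, Prl7a1 and Prl8a2. It was at least 4-fold above for 0 of 12, against 0.397%.

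Prl2c1, next to Prl2a1 in the cluster, measured 4.49 and 6.02 on the irradiated arrays, against 4.33 and 4.26 on the control arrays (limma adjusted p = 0.588). Its height on irradiated replicate 2, 1.53, and those of Prl5a1 (1.06), Prl7a1 (1.01) and Prl8a2 (1.00), the decidual prolactin-related protein, exceeded those of the members Prl8a8 and Prl2b1. Heights of the others ran from 0.80 for Prl7c1 and 0.51 for Prl7a2 through 0.24 for Prl7d1, the antiangiogenic proliferin-related protein, to 0.12 for Prl3c1. Prl, the pituitary hormone itself, measured 4.25 and 4.55 on the irradiated arrays, against 4.25 and 4.53 on the control arrays (limma adjusted p = 0.991), Prl4a1 had a height of 0.01, and Prl3a1 one of -0.27.

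In the RefSeq gene order 23 of the 26 family genes form 1 cluster on chromosome 13, from Prl to Prl5a1, and 19 of them had a probe set of their own. Members were interspersed with other family genes: Prl3d3 was followed by Prl3c1 and Prl3a1, with heights of 0.12 and -0.27, and Prl2b1 and Prl8a8, with small heights, lay on either side of Prl8a6. Prl8a9 and Prl7b1 were separated by Prl8a1 alone, while between Prl7b1 and Prl2a1 lay Prl7a1, Prl7a2, Prl7d1 and Prl7c1, with heights between 0.24 and 1.01. The 9 measured neighbours of the cluster, protein-coding genes among the nearest 5 on each side, had heights between -0.63 and 0.07 and log2 differences between -0.35 and 0.23.

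Prl2c5 lies with Prl2c2 and Prl2c3 in a second locus of the same chromosome. There 9 measured neighbours had heights between -0.50 and 1.58. Lyst, a regulator of lysosome traffic, measured 7.38 and 8.96 on the irradiated arrays, against 7.17 and 7.28 on the control arrays (limma adjusted p = 0.599). Ero1b, an oxidase of the endoplasmic reticulum beside the proliferins, had a height of 1.03 (limma adjusted p = 0.653). The others of the 9 lay below these.

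**Figure D4:**
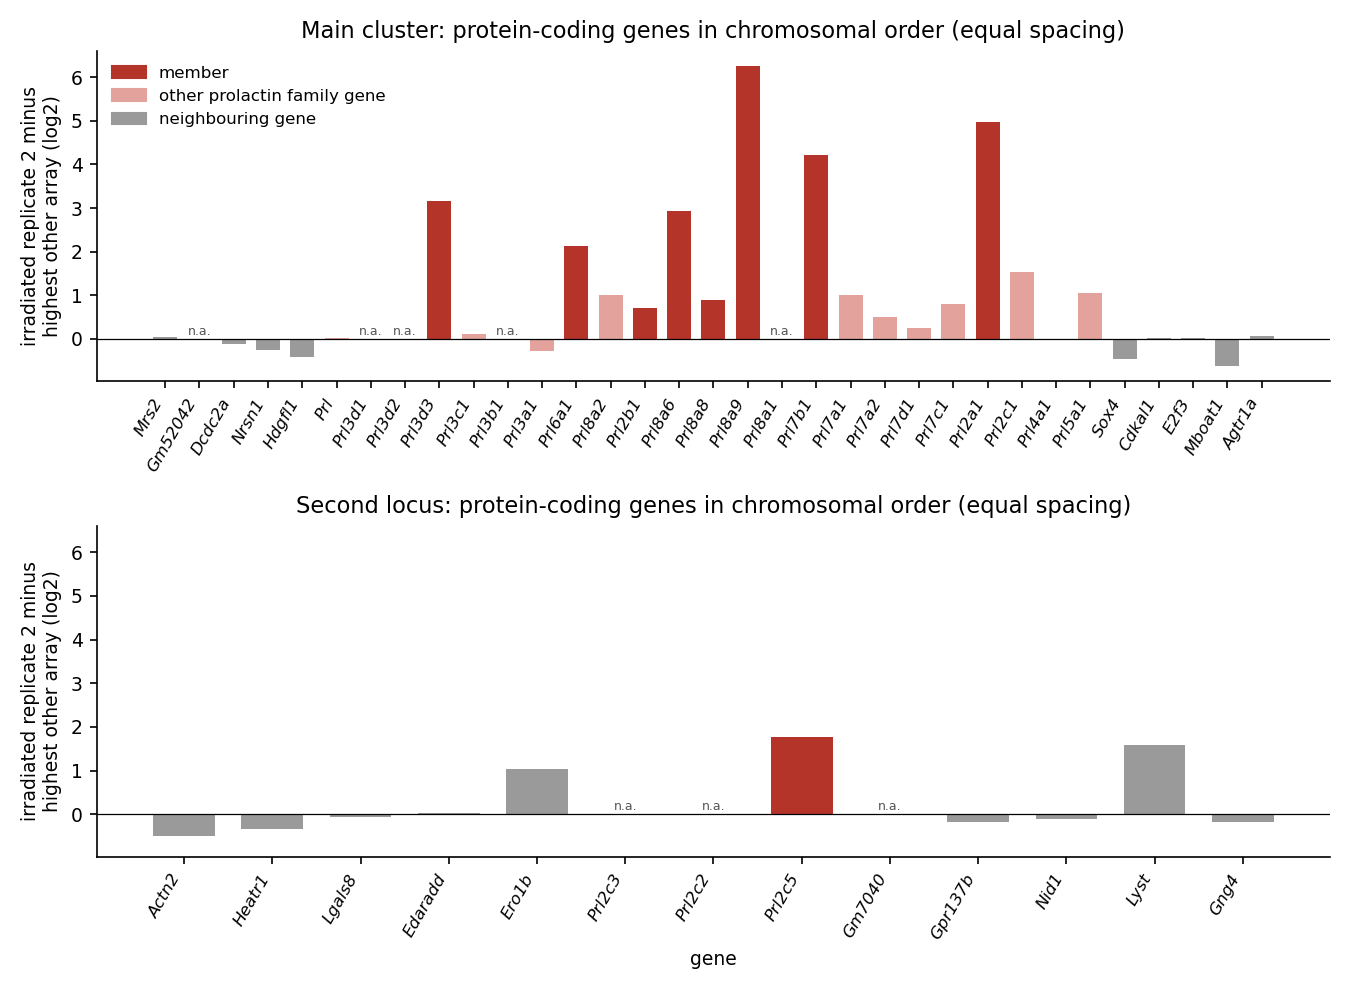
Height of irradiated replicate 2 over the highest other array (log2) for prolactin family genes and their protein-coding neighbours in chromosomal order, at equal spacing; red bars are members, pale bars other family genes, grey bars neighbours, and n.a. marks genes without a probe set of 1 symbol. Members with tall bars alternate with low ones in the main cluster (top), whose neighbours stay between -0.63 and 0.07, and Lyst reaches 1.58 at the second locus (bottom).

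Genes of trophoblast cells, in which the family is normally expressed, were examined on lists. Of 15 measured giant cell and spongiotrophoblast markers 0 rose and 0 fell (limma adjusted p; smallest 0.445). At an unadjusted p under 0.05 were 3 of 15, against 9.46% of all annotated probe sets. The list had 8 genes higher and 7 lower in irradiated cells, a median log2 difference of 0.01, a median level of 6.02 and 6.25 on the irradiated arrays against 6.39 and 5.97 on the control arrays, and 6 of 15 bright. Irradiated replicate 2 was at least 2-fold above the others for 0 of 15, against 1.08% of all annotated probe sets. No height exceeded 0.39. No probe set on the list was at 0.

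Tpbpa, the defining gene of spongiotrophoblast, measured 3.50 and 4.27 on the irradiated arrays, against 3.73 and 4.02 on the control arrays. Hand1, a transcription factor required for giant cells, measured 6.31 and 6.46 on the irradiated arrays, against 6.42 and 6.51 on the control arrays. Both were below the median of annotated probe sets, and the groups overlapped; they are named for their role, after their values were seen. Flt1, a receptor of vascular endothelial growth factor found on spongiotrophoblast, measured 9.54 and 9.77 on the irradiated arrays, against 9.24 and 9.16 on the control arrays (limma adjusted p = 0.491). In the other direction, Rhox6, a homeobox gene of the placenta, measured 7.22 and 7.0 on the irradiated arrays, against 7.43 and 7.45 on the control arrays (limma adjusted p = 0.525).

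An unadjusted p under 0.05 (limma) was reached by 3 of 12 trophoblast stem cell factors, against 9.46% of all annotated probe sets. Of the 12 factors 0 passed the adjusted threshold in either direction (limma, smallest 0.496), and 8 of 12 were bright. They were split evenly, 6 higher and 6 lower in irradiated cells, with a median log2 difference of 0.00. Eomes, a T-box factor needed for the trophoblast lineage, measured 10.28 and 10.42 on the irradiated arrays, against 10.02 and 9.95 on the control arrays (limma adjusted p = 0.496). Id2, a repressor of differentiation, measured 8.41 and 8.98 on the irradiated arrays, against 8.10 and 8.17 on the control arrays (limma adjusted p = 0.514). Ets2, an ETS factor of trophoblast stem cells, was lower, at 8.91 and 8.47 on the irradiated arrays, against 9.15 and 9.02 on the control arrays (limma adjusted p = 0.563). Cdx2, a homeobox factor of the trophoblast lineage named after its values were seen, measured 8.32 and 7.28 on the irradiated arrays, against 7.73 and 7.74 on the control arrays, so that its irradiated arrays lay on either side of the controls. Irradiated replicate 2 was at least 2-fold above every other array for 0 of 12, against 1.08% of all annotated probe sets. No height exceeded 0.57.

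Other placental gene families were examined in the same way. Of 6 measured placental cathepsins, proteases of the rodent placenta, 0 passed, 0 were bright and the median log2 difference was -0.09 (limma, smallest adjusted p = 0.603, with 0 at an unadjusted p under 0.05). Of 19 pregnancy-specific glycoproteins and placental CEACAMs, secreted or surface proteins of trophoblast, 0 passed and 0 were bright, with a median of 0.14 (limma, smallest adjusted p = 0.445). The limma unadjusted p was under 0.05 for 2 of 19, against 9.46% of all annotated probe sets. Irradiated replicate 2 was the highest array for 13 of 19, against 30.3% of all annotated probe sets. Relative to the control mean, the list's median was -0.005 on irradiated replicate 1 and 0.21 on irradiated replicate 2. Ceacam15 was singled out after its values were seen. Of the 19 it alone was at least 2-fold above the other arrays on irradiated replicate 2, against 1.08% of all annotated probe sets. It measured 5.14 and 6.49 on the irradiated arrays, against 5.45 and 5.46 on the control arrays.

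Of the receptor pathway, 14 of 15 genes were measured, and 0 passed in either direction (limma, smallest adjusted p = 0.544, with 0 at an unadjusted p under 0.05), with a median log2 difference of 0.06; the receptor gene Prlr is not analysed here. Ghr, the growth hormone receptor, measured 6.04 and 7.19 on the irradiated arrays, against 6.10 and 5.96 on the control arrays (limma adjusted p = 0.642). Of the STAT5 targets that feed back on the pathway, Cish measured 7.08 and 6.62 on the irradiated arrays, against 6.53 and 6.31 on the control arrays (limma adjusted p = 0.559), and Socs1 measured 8.35 and 7.51 on the irradiated arrays, against 7.45 and 7.52 on the control arrays (limma adjusted p = 0.640). Socs2 and Socs3, from the same list, were named after their values were seen. Socs2 measured 8.03 and 9.21 on the irradiated arrays, against 8.44 and 8.40 on the control arrays (limma adjusted p = 0.882). Socs3 measured 7.97 and 8.00 on the irradiated arrays, against 7.94 and 8.03 on the control arrays. Stat5a itself measured 8.00 and 7.72 on the irradiated arrays, against 8.20 and 8.17 on the control arrays (limma adjusted p = 0.544).

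Of 12 factors known to act on placental lactogen I or proliferin promoters, 0 passed in either direction (limma, smallest adjusted p = 0.345, with 6 of 12 at an unadjusted p under 0.05, against 9.46% of all annotated probe sets). The median log2 difference was 0.20, and 10 were bright. Jun, a subunit of AP-1, measured 10.27 and 9.81 on the irradiated arrays, against 8.87 and 8.99 on the control arrays (limma adjusted p = 0.345). Fos, its partner, measured 9.37 and 8.31 on the irradiated arrays, against 7.58 and 7.71 on the control arrays (limma adjusted p = 0.491). Junb measured 9.69 and 9.28 on the irradiated arrays, against 8.63 and 8.87 on the control arrays (limma adjusted p = 0.449). Fosl2, another AP-1 subunit, measured 9.63 and 9.43 on the irradiated arrays, against 8.86 and 8.86 on the control arrays (limma adjusted p = 0.374). For these 4 genes, named for the largest differences of the list, both irradiated arrays lay above both controls, and replicate 1 was the higher. Of all annotated probe sets, 17.9% had both irradiated arrays above both controls. Jund, also an AP-1 subunit, went the other way, at 9.73 and 9.57 on the irradiated arrays, against 10.05 and 10.04 on the control arrays (limma adjusted p = 0.496). Gata3 measured 8.20 and 8.38 on the irradiated arrays, against 7.96 and 7.98 on the control arrays (limma adjusted p = 0.522).

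**Figure D5:**
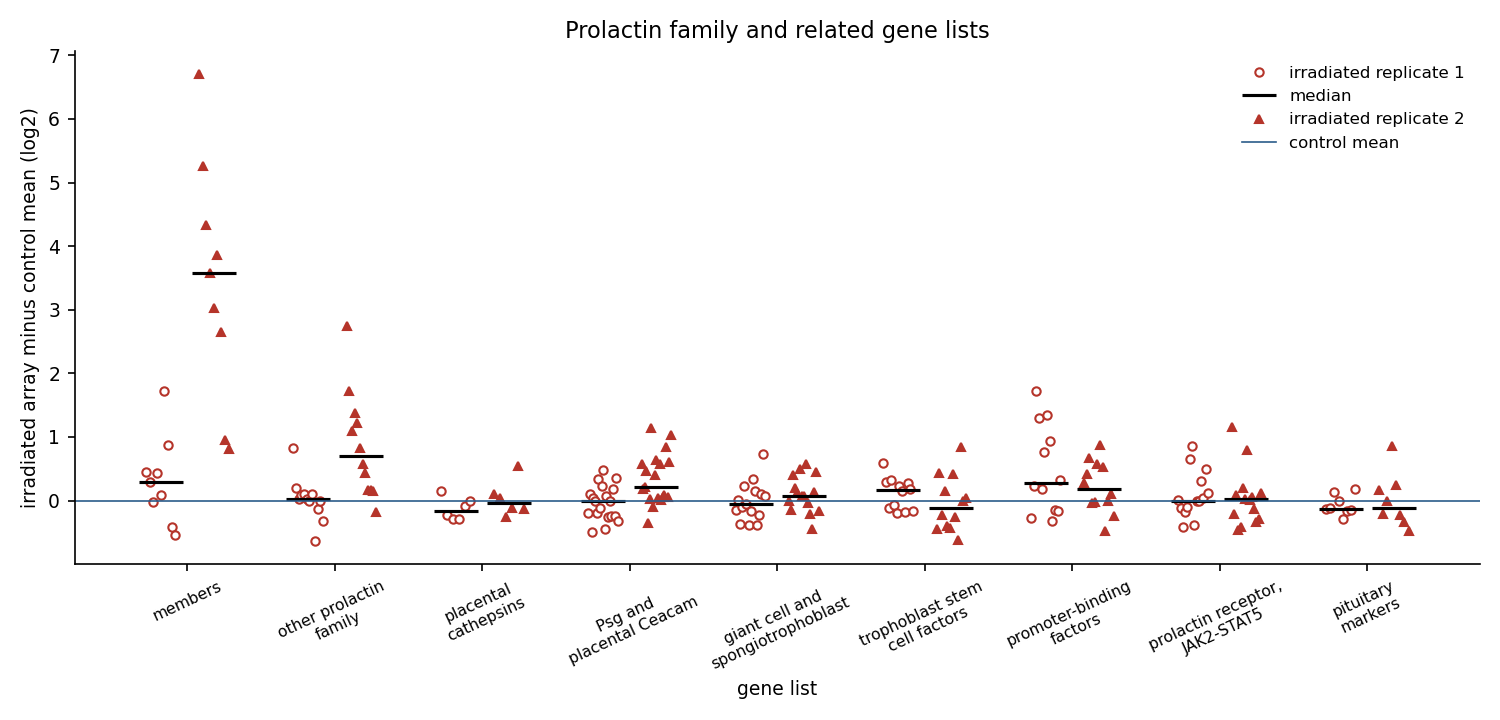
Difference of each irradiated array from the control mean (log2) for the members and 8 gene lists; open circles are irradiated replicate 1, triangles irradiated replicate 2, each point a gene, black bars the list's median and the blue line the control mean. The members' median is 3.58 on irradiated replicate 2 and 0.29 on replicate 1, and that of the other family probe sets is 0.70 and 0.02.

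Epithelial and mesothelial markers also differed between the irradiated arrays. The median of the 10 epithelial and mesothelial markers relative to the control mean was -0.21 on irradiated replicate 1 and -0.78 on irradiated replicate 2, with median levels of 8.39 and 7.89 on the irradiated arrays, against 8.74 and 8.63 on the control arrays. Of the 10, 0 passed limma's adjusted threshold (smallest adjusted p = 0.453). The limma unadjusted p was under 0.05 for 3 of 10, against 9.46% of all annotated probe sets. The part of the epithelial and mesothelial markers in the members' values was not tested. Of 10 neutrophil markers 1 rose, Ly6g, at 12.04 and 11.89 on the irradiated arrays, against 8.87 and 8.82 on the control arrays (limma adjusted p = 0.0083). With 1 array left out its log2 difference stayed between 3.05 and 3.20, while the adjusted p no longer passed in those fits with 1 residual degree of freedom. Of the 10 neutrophil markers 8 were lower in irradiated cells without passing the adjusted threshold. The list's median was -0.73, with -0.69 on irradiated replicate 1 and -0.76 on irradiated replicate 2 relative to the control mean. The limma unadjusted p was under 0.05 for 7 of 10, against 9.46% of all annotated probe sets. Retnlg, a resistin-like gene of neutrophils, measured 5.12 and 4.72 on the irradiated arrays, against 7.19 and 7.85 on the control arrays (limma adjusted p = 0.253). Cxcr2, a chemokine receptor of neutrophils, measured 4.83 and 5.32 on the irradiated arrays, against 6.36 and 6.10 on the control arrays (limma adjusted p = 0.374). For these 3 genes both irradiated arrays lay on the same side of both controls.

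T cell, B cell, pan-leukocyte, macrophage and erythroid lists had 0 genes past the adjusted threshold (limma), and their median log2 differences lay between -0.14 and 0.00. Their limma unadjusted p was under 0.05 for 3 of 10 macrophage and 2 of 7 erythroid genes, against 9.46% of all annotated probe sets. It was under 0.05 for 0 genes of the other lists. The erythroid list holds no globin gene, and 4 globin probe sets were lower past the adjusted threshold. Of 8 measured pituitary markers 0 passed the adjusted threshold (limma), with 0 at an unadjusted p under 0.05 and a median of -0.09. Cga, the alpha subunit of pituitary glycoprotein hormones, measured 4.55 and 5.43 on the irradiated arrays, against 4.50 and 4.63 on the control arrays.

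Outside the family, 17403 genes were ranked by the root mean square distance between their profile over the 4 arrays and the members' median profile, each relative to the control mean. The nearest was Il1rn, the interleukin 1 receptor antagonist, at a distance of 0.11, with 6.58 and 9.97 on the irradiated arrays, against 6.14 and 6.44 on the control arrays. It was followed by Usp17la, a deubiquitinase (0.17), Atp13a4, a P5-type ATPase (0.22), Ccl2, the monocyte-attracting chemokine (0.22), and Tdpoz3 (0.34). C1s1, Usp17lb, Serpinb9c, Ptgs2 and Sprr2h completed the nearest 10, at distances between 0.42 and 0.54.

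Among genes outside the family measured by a probe set with that symbol alone, with predicted, olfactory receptor and vomeronasal receptor genes left out, the greatest heights were those of Serpinb9e, a serpin, at 5.13 (4.35 and 10.14 on the irradiated arrays, against 5.01 and 4.83 on the control arrays) and Sprr1b, a precursor of the cornified envelope, at 4.69 (6.67 and 11.36 on the irradiated arrays, against 6.02 and 6.28 on the control arrays). Eqtn, at 2.36, was the last of the 10, and 7 genes stood on both lists of 10. The points behind each distance are the same 4 arrays, so likeness over them rests mainly on irradiated replicate 2.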

How the data were processed

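RNA of DLA cells (300 ng, biotin-labelled) was measured on 4 arrays. The authors deposited log2 intensities summarised per probe set with RMA, per the submitters' processing notes, which give no version; neither build nor annotation is named in the sources used here. RMA equalises the arrays' distributions and compresses the folds of dim probe sets. The table held 35556 probe sets and 0 columns of other samples. Of these, 21789 had 1 gene symbol, 1621 several and 12146 were not listed; 23319 of the 23410 annotated were found in the RefSeq table (GRCm38.p6), which updated symbols.

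In R 4.3.3, limma 3.58.1 (lmFit, eBayes without trend, two-sided, Benjamini-Hochberg over 23410 probe sets, threshold 0.05) compared irradiated with control arrays, with 2 residual and 3.11 prior degrees of freedom. In 10 simulations of 23410 probe sets it called 87.5% of log2 changes of 1 and 99.9% of changes of 2. There were 183 false calls among 2057. The simulation gave both groups equal spread, whereas the replicate differences had an SD of 0.43 on irradiated and 0.17 on control arrays. The simulated rates therefore need not hold for these arrays. Other tables used Python 3.11.15 and Biopython 1.88. Outside the members, a gene's brightest 1-symbol probe set was used.

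The naming rule took all family genes, up to 4 genes of each list by largest difference and those past the threshold. It also took the 10 genes nearest to the members, the 10 of greatest height (predicted symbols left out) and the cluster's neighbours. Not every gene under this rule is named in the text. For several lists, among them the CEACAM, macrophage and erythroid lists, no gene of largest difference is named. Other names were chosen after their values were seen. The members and lists were chosen with earlier results of these data known. Alternatives covered normalization, probe sets tested, dim filter, variance prior, replicate number as a block and each array left out. Same-numbered replicates were checked for pairing: their deviations correlated at 0.0042 over probe sets, so they were not treated as pairs.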

Additional observations from a re-analysis of the deposited data

How the results depend on the processing

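The members' median log2 difference of 2.01 was 2.00 after quantile normalization and 2.03 with each array centred on its median, and in fits without 1 array it ranged from 0.29 to 3.58. Under both scalings together, 18 of 18 member differences and 18 of 18 heights kept their sign, with the largest move 0.12 for a difference and 0.22 for a height. Of 36 differences with 1 array left out 33 kept their sign; 3 turned without irradiated replicate 2, Prl2b1 (-0.54 to 0.81), Prl7b1 (-0.02 to 4.34) and Prl8a8 (-0.42 to 0.96). Each member had 1 probe set with 1 symbol, so the choices among probe sets could not change a member.

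The 6 probe sets past limma's adjusted threshold became 0 over every row of the table (2726 at an unadjusted p under 0.05). They became 0 with a replicate block (1795 unadjusted). With 1 probe set per gene the count was 1, but that setting took only probe sets with 1 symbol. It left out the globin probe sets and that of Ly6c1 and Ly6c2, which name several genes, so it gives no result for them. The 512 past an unadjusted p of 0.05 and 1.5-fold became 1060 over every row and 528 with the replicate block, and ranged from 326 to 2029 in fits without 1 array. The 1 gene of the lists past the threshold, Ly6g, became 0 to 0 in such fits, which have 1 residual degree of freedom. Ranked by Pearson correlation, 0 of the 10 genes nearest to the members were shared, and 261 genes reached 0.99. The cause was not tested. Precision is limited by 2 arrays per group, and dim members lie near the arrays' low end.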

Other observations

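Other gene families had several probe sets high on irradiated replicate 2; they were chosen after their values were seen and are given as values. All 3 Zscan4 probe sets, of a zinc finger family known from the early embryo and from embryonic stem cells, exceeded each of the remaining arrays at least 4-fold there, with medians of 5.46 and 9.16 on the irradiated arrays, against 5.44 and 5.50 on the control arrays. The Zscan4 probe sets name several genes each, so the genes cannot be separated. Of 8 Serpinb9 probe sets, a serpin family with placental members, 5 did, with medians of 5.06 and 10.00 on the irradiated arrays, against 5.16 and 5.10 on the control arrays and a greatest height of 5.54. Of 6 Gsta probe sets, which encode glutathione S-transferases of the alpha class, 4 did, with medians of 5.89 and 9.24 on the irradiated arrays, against 5.69 and 5.60 on the control arrays. Of 16 Sprr probe sets, genes of the cornified envelope, 4 did. The medians of the 16 were 5.19 and 6.21 on the irradiated arrays, against 5.38 and 5.20 on the control arrays. Of all annotated probe sets, 0.397% were at least 4-fold above every other array on irradiated replicate 2. Several of the Serpinb9 probe sets name the same genes, so they are not separate observations.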
